A study of Mus musculus with 10 samples.

Results

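The 9 genes described here are the core of the Hedgehog signalling pathway: the ligand genes Ihh, Shh and Dhh, the receptor gene Ptch1, the signal transducer gene Smo, the ligand-binding antagonist gene Hhip, and the transcription factor genes Gli1, Gli2 and Gli3. Every probe set that the platform annotation gives to exactly one of them was taken, with no use of its values. That gave 21 probe sets of 45137, 14 on the Affymetrix array MOE430A, where all 9 genes are represented, and 7 on MOE430B, where 5 are. RNA came from mouse embryos at embryonic day 5.5, from which an anterior distal piece (Ad) and a posterior proximal piece (Pp) were dissected to find genes with a higher level in Ad. Ad contained the fluorescent anterior visceral endoderm, a signalling epithelium that patterns the future head side, with the epiblast beneath it. Pp was a wedge of proximal visceral endoderm and epiblast from the opposite side, below the extraembryonic boundary. The last group was the whole embryo. All 3 groups came from matings labelled B6SJLF1×CerlP-GFP and were untreated, so they share the reporter that guided the cut. MOE430A was hybridised with Ad replicates 1 and 2, Pp replicates 1 and 2 and 1 whole embryo, and MOE430B with Ad replicates 3 and 4, Pp replicates 3 and 4 and 1 whole embryo. How many embryos went into a sample is not stated, nor whether replicates were separate embryos, so the p-values measure the spread between these samples, which may be technical.

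In the Hedgehog pathway a secreted ligand binds Ptch1, which otherwise holds the membrane protein Smo inactive. Released Smo acts at the primary cilium to turn the Gli proteins towards activation of their targets, among which are Ptch1, Gli1 and Hhip themselves, so RNA of these target genes is widely used as a readout of the pathway. Ihh is known as the ligand of the visceral endoderm of the early mouse embryo, Shh acts later in the node, notochord and floor plate, and Dhh is best known from the gonad and peripheral nerve.

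The probe sets report brightness in arbitrary units on a linear scale, and signal cannot be set between different probe sets. A probe set was tested only if its mean log2 value over the 5 arrays of its type passed a filter on low values, which corresponds to a signal of about 464 on MOE430A and 37.2 on MOE430B. The median signal per array was 590.5 to 645 for MOE430A and 56.7 to 61.0 for MOE430B. Of 10 measured anterior visceral endoderm genes on MOE430A, 5 were higher in Ad at an adjusted p under 0.05 in limma, beside 0.162% of all tested probe sets. The summed signal of this marker list over 14 probe sets was 27170 to 32680 in Ad against 9080 to 9993 in Pp. All 11 of these marker genes had a probe set there and none was at or below 1 on all arrays. The marker lists were chosen with earlier results of these data known, so they are no independent check of the labels. Pp replicate 2 stood apart in extraembryonic ectoderm and trophoblast markers, at 29440 against 20480 to 21060 in the other 3 fragments. The whole embryo held more signal of decidua and uterus markers, the maternal tissue around the implanted embryo, at 126500 against 27360 to 30880 in the fragments on MOE430A and 5917 against 594 to 696 on MOE430B.

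None of the Hedgehog pathway probe sets differed between the anterior distal and the posterior proximal fragment at an adjusted p of 0.05. On MOE430A 6 of the 14 probe sets passed the filter (Dhh, Gli2, and a pair each of Ptch1 and Smo), and 0 of those 6 passed the limma test, against 0.169% of all 13575 probe sets tested. On MOE430B 5 of 7 passed the filter (Shh, Ptch1, Hhip and a pair of Gli3) and 0 of 5 passed the test, against 0.111% of 13506. At an unadjusted p under 0.05 there was 1 of 6 on MOE430A, the brighter Ptch1 probe set, and 0 of 5 on MOE430B, against 11.7% and 10.4% of all. With such backgrounds a count of 0 is no sign that the pathway stands apart from other genes. The median log2 difference of the tested members was 0.01 on MOE430A and 0.03 on MOE430B, and that of all tested probe sets was -0.03 and -0.01. The 95% intervals give the sizes of difference that the arrays leave possible. For all 11 tested members the 95% interval of the Ad to Pp difference lay inside a 2-fold change in either direction, as it did for 99.1% of all probe sets on MOE430A and 94.7% on MOE430B. With no filter, 0 of all 14 and 0 of all 7 probe sets passed, against 0.084% and 0.00888%. The intervals are on the scale of log2 of signal plus a pseudocount, which understates changes of dim probe sets. In fragments cut from tissue, fewer cells of a type and less RNA per cell cannot be told apart.

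**Figure D1:**
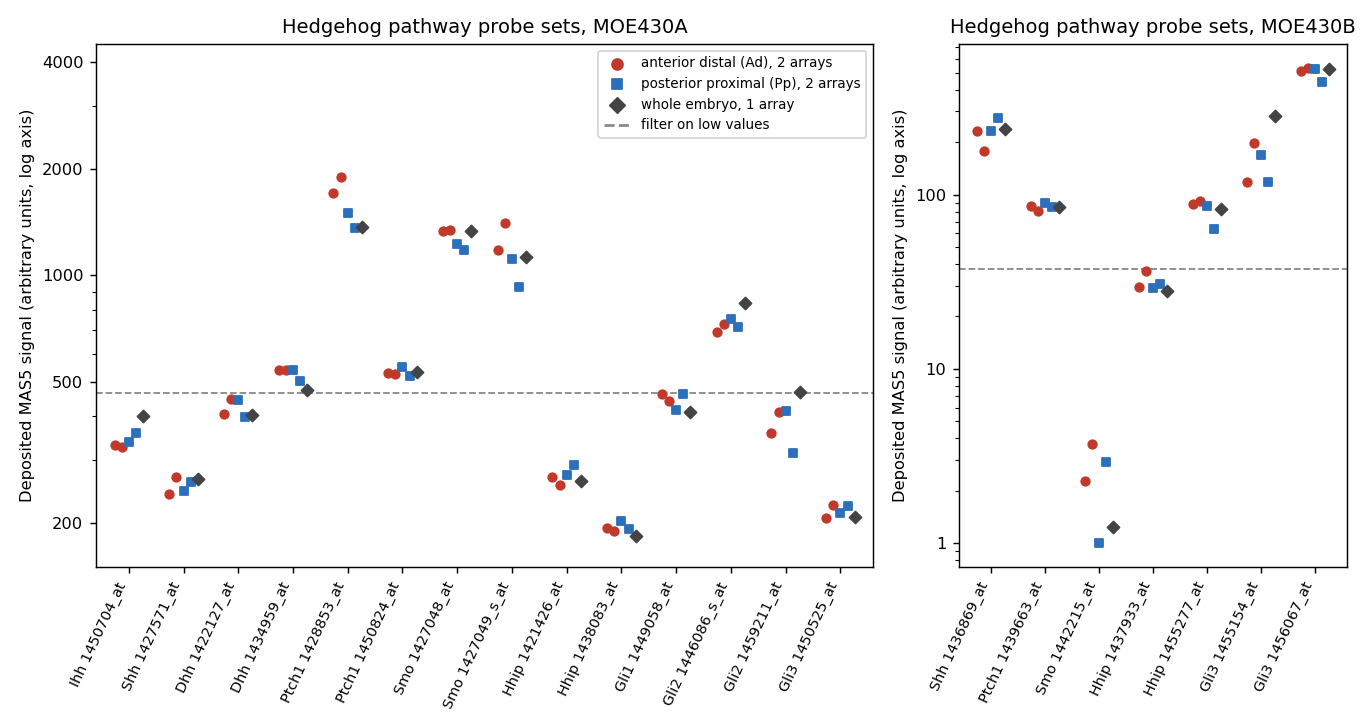
Deposited signal (arbitrary units, log axis) of all 21 Hedgehog pathway probe sets in every array: red circles are Ad, blue squares are Pp, grey diamonds are the whole embryo, and the dashed line marks the signal of about 464 (MOE430A) or 37.2 (MOE430B) that matches the filter. Most probe sets change little across the 5 arrays. Both Ad arrays are above both Pp arrays for the brighter Ptch1 probe set, the tested Smo pair and Hhip 1455277_at. The reverse holds for Ihh, Shh 1436869_at and Hhip 1421426_at. Gli3 1455154_at is highest in the whole embryo.

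Among the ligand genes, Ihh had 1 probe set, on MOE430A, and it stayed below the filter. Its signal was 332 and 327 in the Ad arrays, 338 and 358 in the Pp arrays and 399.6 in the whole embryo. The Pp values lay above the Ad values and the whole embryo above both, but the highest value was only 1.22-fold the lowest. Of the probe sets tested on MOE430A, which leave Ihh out, 12.2% had both Pp arrays above both Ad arrays. The whole embryo was above all 4 fragments for 36.8% of them. When every probe set was tested without the filter, the Ihh difference between Ad and Pp was -0.09 (95% interval -0.22 to 0.05, adjusted p = 0.662), and that between fragments and whole embryo was -0.08 (adjusted p = 0.460). Ihh ranked at percentile 30.0 of the probe sets on this array type by mean signal. The deposited table carries no detection call that was used here, so this low signal does not tell whether the RNA was absent.

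Shh was tested on MOE430B only. Its probe set there read 231 and 179 in Ad, 232 and 274 in Pp, and 237 in the whole embryo, so both Pp arrays were above both Ad arrays, as for 14.6% of tested probe sets on MOE430B, but the nearest pair was almost level. The difference of Ad minus Pp was -0.38, the most negative of the tested members on either array type, with a 95% interval of -0.79 to 0.04 and an adjusted p of 0.524. On MOE430A the other Shh probe set was below the filter, at 242 to 269.

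Dhh had a tested probe set on MOE430A with 539 and 541 in Ad, 541 and 502 in Pp, and 475 in the whole embryo. Ad and Pp overlapped, with a difference of -0.03 (adjusted p = 0.857) that turned to 0.03 with no centring of the arrays. The whole embryo was below all 4 fragments, which happened for 22% of all probe sets tested on this array type, and the fragments were 1.14-fold higher without passing (adjusted p = 0.176). The other Dhh probe set, at 397 to 447, was below the filter.

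Ptch1, the receptor and itself a target of the pathway, had the lowest unadjusted p of the members between Ad and Pp, in 1 of its 3 probe sets. Probe set 1428853_at read 1703 and 1899 in Ad, 1499 and 1359 in Pp, and 1367 in the whole embryo. Both Ad arrays were above both Pp arrays, a separation in that direction that 32.3% of all tested probe sets on MOE430A showed. The mean was 1801 ± 139 (SD, n = 2) in Ad and 1429 ± 99.2 (n = 2) in Pp. The log2 difference was 0.22, or 1.17-fold, with a 95% interval of 0.01 to 0.43, and it did not pass once adjusted over all probe sets (adjusted p = 0.407). The other Ptch1 probe set on MOE430A read 528 and 525 in Ad, 553 and 519 in Pp, and 535 in the whole embryo, and its difference was -0.08 (adjusted p = 0.637). The Ptch1 probe set on MOE430B read 85.9 and 81.1 in Ad, 90.0 and 85.3 in Pp, and 85.2 in the whole embryo, a difference of -0.14 (adjusted p = 0.761). The 3 probe sets of this gene thus did not share a sign.

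The proximal promoter of Ptch1 is shown because the brighter probe set was the nearest to a difference between Ad and Pp and because the gene is a classic Gli target. RefSeq (GRCm38.p6) gave promoter windows for 7 of the 9 genes (Ihh, Dhh, Ptch1, Smo, Hhip, Gli2 and Gli3), and the 250 bases before each start were searched on both strands for the Gli consensus GACCACCCA. None of the 7 held it, while 0.225% of 32851 promoters did; the closest stretch matched 6 of the 9 letters in Ptch1 and Gli3 and 7 in the other 5, and 51.8% of all promoters reached 7. The Ptch1 window lies at chr13:63565736-63565985 on the minus strand. The capitals mark the first stretch with 6 matching letters, which reads on the opposite strand to the consensus. A later stretch of the window matches as many letters and is not marked.
Ptch1: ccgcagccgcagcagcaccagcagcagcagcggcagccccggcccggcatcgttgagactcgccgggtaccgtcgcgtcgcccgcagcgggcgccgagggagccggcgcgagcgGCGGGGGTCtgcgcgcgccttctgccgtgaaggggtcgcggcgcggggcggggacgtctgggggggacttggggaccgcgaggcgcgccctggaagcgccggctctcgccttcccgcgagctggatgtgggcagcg
The window is rich in G and C, at 78.4% against a median of 52.4% over all promoters. That these letters are not in this window says nothing about binding elsewhere at the gene.

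Smo, the transducer, had a pair of tested probe sets on MOE430A, and both were higher in Ad than in Pp without overlap. The first, 1427048_at, read 1338 and 1340 in Ad, 1226 and 1176 in Pp, and 1338 in the whole embryo. The second, 1427049_s_at, read 1179 and 1401 in Ad, 1110 and 929 in Pp, and 1125 in the whole embryo. Both come from the same source sequence in the annotation and are not independent measurements. Their log2 differences were 0.06 (95% interval -0.10 to 0.22, adjusted p = 0.729) and 0.21 (-0.06 to 0.48, adjusted p = 0.498). A probe set of Smo on MOE430B was close to the lowest values of the table, at 1 to 3.73, and was not tested. With Ptch1, 3 of the 6 tested members on MOE430A had both Ad arrays above both Pp arrays and 0 of 6 had the reverse, beside 32.3% and 12.2% of all tested probe sets. Separation and overlap of arrays are given on the deposited signal, before centring, while the log2 differences are after centring. The median signal on MOE430A was 626 and 608 in the Ad arrays and 597 and 590.5 in the Pp arrays. After centring, 41.1% of tested probe sets there had an Ad minus Pp difference above 0.

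Hhip, which binds Hedgehog ligands at the cell surface and is induced by the pathway, was represented by 4 probe sets, of which 1 was tested. That one, on MOE430B, read 88.7 and 92.5 in Ad, 86.5 and 63.9 in Pp, and 82.8 in the whole embryo, with both Ad arrays above both Pp arrays, as for 28.8% of tested probe sets there. Its difference of 0.17 (95% interval -0.26 to 0.61, adjusted p = 0.766) rested on the second Pp array: without Pp replicate 4 it was -0.05. The remaining Hhip probe sets read 255 to 291 and 183 to 202 on MOE430A, and 28.1 to 36.6 on MOE430B.

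Gli1, the transcription factor whose RNA follows pathway activity most directly, was below the filter. It read 463 and 440.4 in Ad, 418 and 461 in Pp, and 412 in the whole embryo. Ad and Pp overlapped, and without the filter the difference was -0.01 (95% interval -0.16 to 0.13, adjusted p = 0.951). Gli1 lay just under the filter and Dhh 1434959_at just above it, at percentiles 37.7 and 43.6 of mean signal.

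Gli2, the main activator, had a tested probe set on MOE430A that read 690 and 728 in Ad, 753 and 713 in Pp, and 834 in the whole embryo. The fragments overlapped (difference -0.10, adjusted p = 0.583), and the whole embryo was above all 4 of them, as for 36.8% of all tested probe sets (fragments minus whole embryo -0.08, adjusted p = 0.548). The other Gli2 probe set, below the filter, read 359 and 410 in Ad, 413 and 315 in Pp, and 468 in the whole embryo, again highest in the whole embryo.

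Gli3, which acts mainly as a repressor when no ligand is present, was tested by a pair of probe sets on MOE430B. Probe set 1456067_at read 512 and 534 in Ad, 528 and 445 in Pp, and 528 in the whole embryo, and 1455154_at read 118 and 199 in Ad, 168 and 119 in Pp, and 282 in the whole embryo. Ad and Pp overlapped for both, with a difference of 0.03 for each (adjusted p = 0.957 and 0.977). The sign was not stable: without Pp replicate 4 the differences were -0.12 and -0.23. A Gli3 probe set on MOE430A was below the filter, at 207 to 224.

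**Figure D2:**
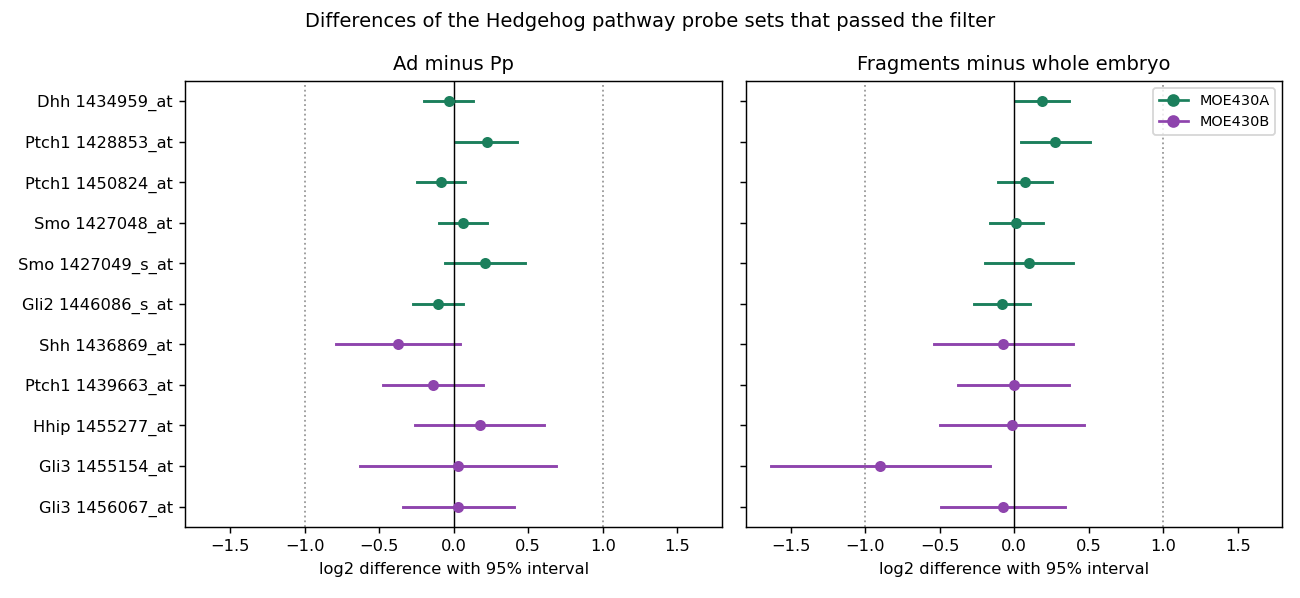
Log2 differences (points) with 95% intervals (lines) for the 11 Hedgehog pathway probe sets that passed the filter, as Ad minus Pp on the left and fragments minus whole embryo on the right; green is MOE430A, purple is MOE430B, and dotted lines mark a 2-fold change. All intervals on the left lie inside the dotted lines, and on the right that of Gli3 1455154_at alone reaches beyond them.

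The same genes were set against the whole embryo, hybridised once on each array type and assumed to vary like the fragments. Again 0 of 6 members on MOE430A and 0 of 5 on MOE430B passed in limma, against 9.78% and 2.21% of all tested probe sets; at an unadjusted p under 0.05 there were 2 of 6 and 1 of 5, against 27.3% and 16.4%. With no filter the counts were 0 of 14 and 0 of 7, against 6.26% and 0.871%. The 95% interval lay inside a 2-fold change for 6 of 6 and 4 of 5 members, against 96.5% and 86.5% of all. The median of the members was 0.09 on MOE430A, where that of all probe sets was 0.05, and -0.07 on MOE430B, against 0.03. The brighter Ptch1 probe set was 1.21-fold higher in the fragments (1615 ± 236, SD, n = 4, against 1367), at an adjusted p of 0.131. Without Pp replicate 2 its log2 difference was 0.30, against 0.28 as reported. That fit was left with 1 Pp array, and calls over all probe sets rose in it as well.

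The largest difference of a member was in Gli3 1455154_at, at a fragment mean of 151 ± 39.7 (SD, n = 4) beside 282 in the whole embryo. The whole embryo was above all 4 fragments, as for 22.7% of tested probe sets on MOE430B. The log2 difference was -0.90, or 1.86-fold, with a 95% interval of -1.63 to -0.16 and an adjusted p of 0.225. The other Gli3 probe set differed by only -0.07 (adjusted p = 0.878). The summed decidua and uterus markers on this array type, 5917 in the whole embryo and 594 to 696 in the fragments, moved the same way, and their part in that difference was not tested.

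Beyond the core, genes that make, release or receive the ligand differed between fragments and whole embryo for a pair of co-receptors. Gas1, a membrane-anchored co-receptor that helps Ptch1 bind ligand, was lower in the fragments on MOE430A. It read 1466 and 1456 in Ad, 1514 and 1048 in Pp, and 3894 in the whole embryo, so every fragment was far below the whole embryo and Ad and Pp overlapped. The fold was 2.44 (log2 difference -1.29, adjusted p = 0.00931). The other Gas1 probe sets had differences of -0.41 (adjusted p = 0.0273) and -0.13 (adjusted p = 0.327). Cdon, an immunoglobulin-family co-receptor, was 2.13-fold lower in the fragments on MOE430B, at 127 and 122 in Ad, 99.9 and 110.1 in Pp, and 253 in the whole embryo (adjusted p = 0.0199). The Cdon probe set on MOE430A, at 669 to 740 over its 5 arrays, had a difference of 0.03 (adjusted p = 0.835). The related co-receptor gene Boc had the same sign but did not pass (2153 ± 139, SD, n = 4, against 2890 in the whole embryo; adjusted p = 0.0657).

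Without an Ad array the differences of both co-receptors kept their size while the calls were lost. Without Ad replicate 1 or 2 the log2 difference of Gas1 was -1.28 and -1.29 (adjusted p = 0.0613 and 0.0657), and without Ad replicate 3 or 4 that of Cdon was -1.10 and -1.07 (adjusted p = 0.114 and 0.138). Calls over all probe sets fell as well without those arrays, from 1327 to 302 and 274 on MOE430A and from 299 to 109 and 101 on MOE430B. In further settings the call of Gas1 held, and with no filter the adjusted p of Cdon was 0.0596. Without Pp replicate 1 or 2 the log2 difference of Gas1 was -1.39 and -1.18, and without Pp replicate 3 or 4 that of Cdon was -1.07 and -1.11. In those fits the spread rests on the Ad arrays alone, and calls over all probe sets rose. Over the whole list of ligand making, release and reception, 1 of 10 tested genes on MOE430A and 1 of 7 on MOE430B were lower in the fragments and 0 were higher, with medians of -0.10 and 0.16, while 5.18% and 1.81% of all probe sets were called lower. The split over all probe sets on MOE430A moved with centring, from 624 higher and 703 lower as reported to 338 higher of 1304 called with no centring. On MOE430A 15 of 20 tested decidua and uterus genes were lower in the fragments as well, among them the collagen gene Col1a1 (329.7 ± 37.2, SD, n = 4, against 4360, adjusted p = 0.00027), and their part in the results for Gas1 and Cdon was not tested. That marker list was partly chosen on these samples and is no independent evidence of its direction.

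Between Ad and Pp, 0 of 10 and 0 of 7 genes of this list passed in limma, against 0.169% and 0.111% of all probe sets. On MOE430A 3 of the 10 had an unadjusted p under 0.05, all lower in Ad, a direction that 5.93% of all probe sets showed at that level. They were Lrp2, the megalin receptor of the visceral endoderm surface that also takes up Hedgehog ligand (2308 and 2032 in Ad, 2508 and 2543 in Pp; difference -0.27, adjusted p = 0.341), Boc (-0.19, adjusted p = 0.390) and Extl2, a heparan sulphate enzyme (-0.18, adjusted p = 0.405). On MOE430B another Lrp2 probe set had a difference of the same sign, -0.22 (adjusted p = 0.633). The list medians were -0.07 and 0.08.

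The intracellular regulators, which link Smo to the Gli proteins, gave no call. None of 13 tested genes on MOE430A and of 18 on MOE430B passed in limma between Ad and Pp. Of all probe sets 0.169% and 0.111% did. At an unadjusted p under 0.05 there were 2 and 1, against 11.7% and 10.4% of all, and the medians were 0.01 and 0.02. With such backgrounds these counts do not set the list apart. The ends of the list were Fbxw11, a ubiquitin ligase subunit (0.27, adjusted p = 0.369), and Cul1, the scaffold of such ligases (-0.25, adjusted p = 0.353), on MOE430A, and the casein kinase gene Csnk1g1 (0.55, adjusted p = 0.423) and Gpr161, a ciliary receptor that restrains the pathway (-0.30, adjusted p = 0.605), on MOE430B. Against the whole embryo 0 of 13 and 0 of 18 passed as well, beside 9.78% and 2.21% of all probe sets. At an unadjusted p under 0.05 there were 2 and 1, beside 27.3% and 16.4% of all. Btrc, which tags Gli proteins for processing, came nearest (2323 ± 197, SD, n = 4, against 3479, adjusted p = 0.0565).

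Of genes of cilium assembly and trafficking, 0 of 14 and 0 of 18 passed in limma between Ad and Pp, against 0.169% and 0.111% of all probe sets. At an unadjusted p under 0.05 there were 0 of each, against 11.7% and 10.4% of all, and medians were -0.02 and 0.01. Against the whole embryo 2 of 14 were higher in the fragments on MOE430A, where 4.6% of all probe sets were called higher. On MOE430B it was 0 of 18, where 0.407% of all probe sets were called higher. At an unadjusted p under 0.05, 3 of the 14 on MOE430A were higher and 1 was lower, beside 27.3% of all probe sets in either direction. On MOE430B 3 of the 18 were higher and 0 lower, beside 16.4%. The called genes were B9d1, of the ciliary transition zone (1095 ± 33.9, SD, n = 4, against 776; 1.39-fold, adjusted p = 0.0233), and Ift27, of the intraflagellar transport complex (824 ± 111 against 617; 1.30-fold, adjusted p = 0.0482). Another Ift27 probe set had a difference of 0.33 (adjusted p = 0.0820). Epiblast markers moved the same way on this array type, with 7 of 10 higher in the fragments and a summed signal of 56630 to 64250 against 43270, and so did 3 of 16 visceral endoderm markers (157100 to 208900 against 148800); no marker of either list was at or below 1 on all arrays, and their part in these results was not tested. Without Ad replicate 1 or 2 the log2 difference stayed about as large, at 0.50 and 0.45 for B9d1 (adjusted p = 0.0855 and 0.114; 0.47 as reported) and 0.42 and 0.35 for Ift27 (0.107 and 0.162; 0.38 as reported). Ift27 also lost its call with no centring (0.0805), quantile normalization (0.0637), the larger pseudocount (0.0547) and no filter (0.0622). Without Pp replicate 1 or 2 the log2 difference was 0.48 and 0.46 for B9d1 and 0.39 and 0.38 for Ift27.

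Of genes known to respond to Hedgehog signals in some tissue, 1 of 23 on MOE430A and 0 of 7 on MOE430B passed between Ad and Pp. Of all probe sets there 0.169% and 0.111% did. The 1 called was Foxa2, a forkhead factor of the floor plate that also belongs to the visceral endoderm, higher in Ad by 2.17-fold (2304 and 1945 against 838 and 751; adjusted p = 0.0237). Without Ad replicate 1 or 2 its log2 difference was 1.01 and 1.22, against 1.12 as reported, and its adjusted p 0.307 and 0.164. Without Pp replicate 1 or 2 the log2 difference of Foxa2 was 1.17 and 1.06, in fits whose spread rests on the Ad arrays alone. Anterior visceral endoderm markers moved the same way, with 5 of 10 called higher in Ad, beside 0.162% of all probe sets. The part of these markers in the Foxa2 result was not tested. That list was chosen with earlier results of these data known. Of the response list on MOE430A, Bmp2, a secreted growth factor, came nearest to the threshold after Foxa2. It read 566 and 424 in Ad against 156 and 182 in Pp (1.69-fold, log2 difference 0.76, adjusted p = 0.09975 in limma). At an unadjusted p under 0.05, 3 of the 23 genes were higher in Ad and 1 was lower, beside 5.8% and 5.93% of all probe sets. The medians of the response list were -0.07 over 23 genes and -0.14 over 7, and those of all tested genes were -0.03 and -0.01.

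Against the whole embryo the response list gave 2 of 23 genes higher and 2 lower in the fragments on MOE430A, and 3 of 7 lower on MOE430B, where 4.6% and 5.18% of all probe sets on MOE430A were called higher and lower and 1.81% on MOE430B lower. The lower ones were Bmp2, a secreted growth factor (332 ± 197, SD, n = 4, against 2677; adjusted p = 0.000511), the transcription factor gene Prdm1 (544 ± 135 against 1044; adjusted p = 0.0184), Hand2, a transcription factor of the uterine stroma among other tissues (133 ± 15.4 against 2223; adjusted p = 0.00107), the cyclin-dependent kinase gene Cdk6 (254 ± 38.2 against 1056; adjusted p = 0.00195) and the survival gene Bcl2 (190.2 ± 21.5 against 398; adjusted p = 0.0296). The Bmp2 mean covers uneven fragments, at 566 and 424 in Ad and 156 and 182 in Pp, all below the whole embryo. Bmp2 and Hand2 are also on the decidua and uterus list, whose markers moved with them. Other tested probe sets of these genes did not pass: Bcl2 was at -0.06 on MOE430A (adjusted p = 0.660) and at 0.29 and 0.50 on MOE430B (0.709 and 0.314), Cdk6 at -0.41 (0.476) and Hand2 at -0.57 (0.194). The higher ones were Foxa2 (1.61-fold, adjusted p = 0.0174), whose Pp mean of 794 was close to the 782 of the whole embryo, and Ccne1, a cyclin of DNA replication onset (1.29-fold, adjusted p = 0.0455), whose probe set on MOE430B was at 0.35 (adjusted p = 0.314). The epiblast and visceral endoderm markers given above moved the same way as Foxa2 and Ccne1. Anterior visceral endoderm markers did so too on MOE430A, with 5 of 10 higher in the fragments and a median of 0.47. The part of these marker lists was not tested. Of these 7 calls, those of Bmp2, Hand2 and Cdk6 held in every setting in which they were tested, whereas without either Ad array the other 4 missed the threshold with differences of about the same size. The log2 differences were then -0.69 and -0.59 for Prdm1 (adjusted p = 0.0576 and 0.0818; -0.64 as reported) and 0.64 and 0.74 for Foxa2 (0.0663 and 0.0546; 0.69 as reported). They were 0.38 and 0.35 for Ccne1 (0.134 and 0.176; 0.36 as reported) and -1.08 and -1.003 for Bcl2 (0.133 and 0.169; -1.04 as reported). Bcl2 also missed the threshold with no filter (0.0847), and Ccne1 with no centring (0.0797), no pseudocount (0.0605), no filter (0.0517), the stricter filter (0.0533) and an intensity trend (0.0597).

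**Figure D3:**
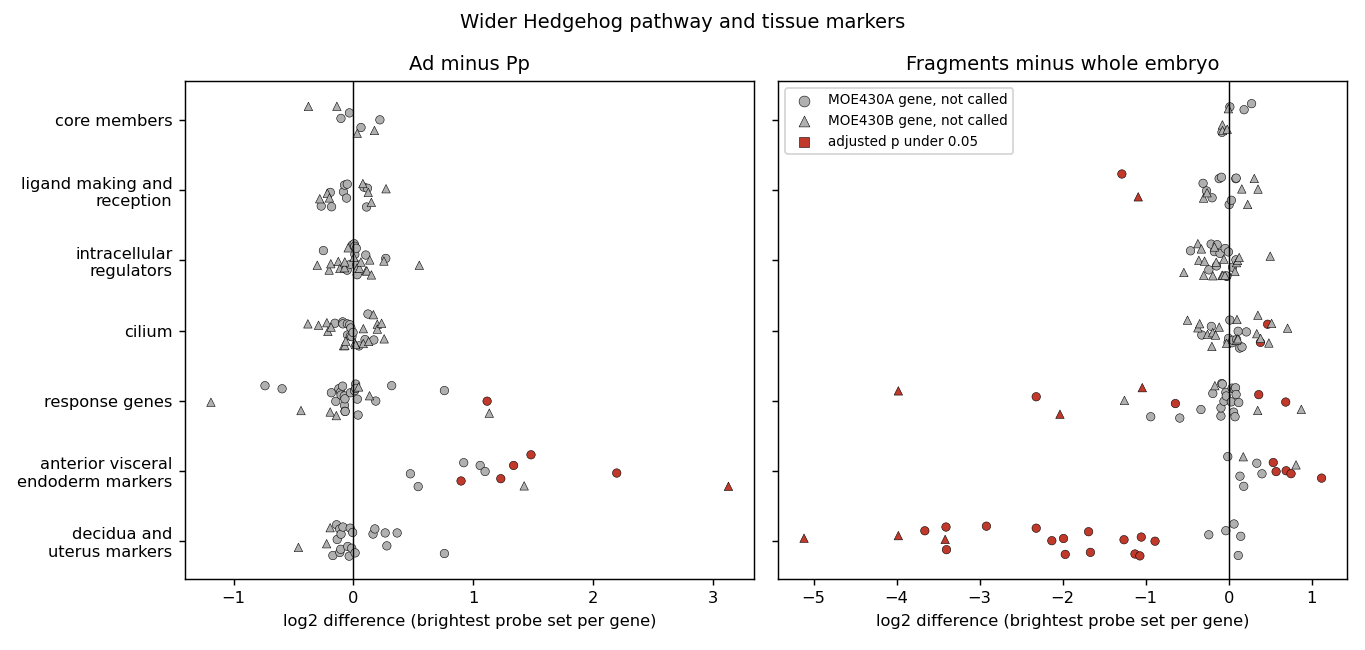
Log2 difference of each tested gene (brightest probe set per gene; circles MOE430A, triangles MOE430B) in the wider Hedgehog pathway lists and a pair of marker lists, as Ad minus Pp on the left and fragments minus whole embryo on the right; red marks an adjusted p under 0.05. The core members run from -0.38 (Shh) to 0.22 (Ptch1) on the left and from -0.08 (Gli2) to 0.28 (Ptch1) on the right. Gli3 1455154_at, at -0.90 against the whole embryo, is not the brightest Gli3 probe set and is not drawn. Foxa2 is the only called pathway gene on the left. On the right Gas1 and Cdon (MOE430B) lie to the left of 0 as most decidua and uterus markers do.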

How the data were processed

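The authors deposited probe set intensity made with MAS5, per the submitters' processing notes; its version, scaling target and floor were not given in the sources used here. RNA had been linearly amplified, per the labels' protocols. Affymetrix MOE430A and MOE430B were analysed separately, with limma 3.58.1 under R 4.3.3. On each type 64 control probe sets were dropped. A pseudocount at the 20th percentile of all values (248 and 10.5) was added before the log2, probe sets above the 40th percentile of mean log2 value were kept, and each array was centred on its median. One coefficient per group was fitted with lmFit and eBayes (2 residual degrees of freedom); p-values are two-sided and Benjamini-Hochberg adjusted over all kept probe sets. Precision is limited by the number of arrays; an exact test of 2 against 2 arrays cannot go below p = 0.333.

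Gene names are those of the platform annotation (1 symbol for 20380 and 14661, several for 691 and 245, none for 1555 and 7605), matched by gene identifier to RefSeq GRCm38.p6 for 20351 and 14486. Lists use the brightest kept probe set per gene. Each member probe set is accounted for. Of the wider pathway lists, genes past the threshold are named, with only some of the 2 highest or lowest of each list. Few marker genes are named. A search for genes of like pattern was set for members spanning at least 1 on the log2 scale over the arrays by their brightest probe set, and none did. The members and lists were chosen with earlier results of these data known. The method was tested on simulated data in which all probe sets of an array type had the same spread, unlike in these data.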

Additional observations from a re-analysis of the deposited data

How the results depend on the processing

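Under the alternatives (no centring of the arrays, quantile normalization, no or a larger pseudocount, no filter or one at the 60th percentile, an intensity trend, the replicate block, each fragment array left out) the 22 member results gave 243 values, of which 227 kept their direction and stayed short of the threshold, 15 turned sign and 1 passed (Ptch1 without Pp replicate 2, so 1 member was called there and 0 in all other settings). The value that passed came from a fit left with 1 Pp array, in which calls over all probe sets rose too, so it does not set Ptch1 apart. No member with a difference above 0.18 in size turned. With no centring Dhh turned to 0.035 in Ad minus Pp, and in fragments minus whole embryo Smo 1427048_at turned to -0.065, Ptch1 1450824_at to -0.0068 and Ptch1 1439663_at to 0.0052; Smo 1427048_at was -0.0082 with the filter at the 60th percentile, and Gli3 1456067_at was -0.0040 in Ad minus Pp under quantile normalization. With an array left out on MOE430B, Ad minus Pp ranged from -0.31 to 0.38 for Gli3 1455154_at, from -0.12 to 0.18 for Gli3 1456067_at and from -0.045 to 0.39 for Hhip, and fragments minus whole embryo from -0.17 to 0.020 for Shh, from -0.034 to 0.029 for Ptch1, from -0.13 to 0.094 for Hhip and from -0.15 to 8.159e-06 for Gli3 1456067_at. The members' median on MOE430A was 0.21 with the filter at the 60th percentile, where fewer members are tested. The count of all probe sets called in Ad minus Pp was 23 on MOE430A and 46 with no centring, and 15 on MOE430B, with 30 at the larger pseudocount, 2 with no filter, 26 with the filter at the 60th percentile, 30 with an intensity trend and 29 with the replicate block; fragments minus whole embryo went from 299 to 196 on MOE430B with no filter. Leaving out an array gave 1 to 807 and 0 to 131 calls in Ad minus Pp, and 274 to 3494 and 101 to 1180 against the whole embryo; the cause was not tested. Equal replicate numbers are not stated to pair the samples, and deviations of same-numbered arrays correlated at -0.24 and -0.04 across probe sets; with the replicate block 24 and 29 probe sets and 0 members were called, including 19 of the 23 and all 15 called without it, and with the numbers crossed on MOE430A, an alternative chosen after seeing the data, 47 probe sets and 0 members were called. Dim probe sets limit Ihh and Gli1, whose signals are below the filter.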

Other observations

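In the Hedgehog response list, Bmp4 and Igf2 differed more between the Pp replicates than between Ad and Pp, with Pp replicate 2 the higher, as it was in extraembryonic ectoderm and trophoblast markers (29440 against 20790 in Pp replicate 1); the part of those markers was not tested. Bmp4, a growth factor of the extraembryonic ectoderm, was at 674 ± 98.2 (SD, n = 2) in Ad and 1466 ± 1263 (n = 2) in Pp, and the growth factor gene Igf2 was at 1222 ± 129 and 1998 ± 1070; neither passed (adjusted p = 0.592 and 0.505). On MOE430B Tbx3, a transcription factor gene, was at 62.4 ± 19.0 (n = 2) in Ad and 146 ± 32.6 (n = 2) in Pp (adjusted p = 0.266), and Cdk6 was at 221 ± 5.65 and 287 ± 0.580 (adjusted p = 0.423).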
